A study of Drosophila melanogaster with 24 samples.

Results

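Delta cells were put beside NDCterm cells in 1 of the 8 cell mixes of the series, and the arrays of that mix are described here gene by gene. All mixes were made from Drosophila S2 cells, a hemocyte-like culture line, and RNA was taken from both populations together after 45 minutes of contact. The mix S2-NDCterm/S2-Dl held NDCterm cells and cells that express the ligand Delta. It was set against S2/S2-NDCterm, which held NDCterm cells and plain S2 cells, so both mixes carried NDCterm cells and differed in which cells lay beside them. NDCterm is taken here for a form of Notch that differs at its C-terminal end, from its name and from the contrasts of the design, because the labels do not define it. S2/S2-Dl (Delta cells and plain S2 cells) and S2/S2 (plain S2 cells alone) served as the same pair without NDCterm cells. Each replicate was a pool of 2 independent samples, per the series design. The labels give no promoter, no ratio of the populations and no number of clones for any line, and their source field names an epidermal tissue of the embryo while the titles name S2 cells.

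The comparison used 5 of the 24 arrays: 3 of S2-NDCterm/S2-Dl (replicate 1, array 1 of replicate 2, and replicate 3) and 2 of S2/S2-NDCterm (replicates 1 and 3). Replicate 2 of S2-NDCterm/S2-Dl had a second array, which was left out because its Delta signal was under 1000. Delta therefore chose the arrays and its values are a description only. The bright Delta probe set read 11218, 11382 and 11601 signal units in S2-NDCterm/S2-Dl, against 14.4 and 17.1 in S2/S2-NDCterm, and the array left out read 13.9. The other Delta probe set read 4.48, 4.73 and 0.686 in S2-NDCterm/S2-Dl, against 10.9 and 4.56 in S2/S2-NDCterm, so it did not separate the mixes.

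Notch is a receptor at the cell surface and Delta is its ligand on neighbouring cells. Binding leads to cleavage of Notch, and its intracellular part enters the nucleus and acts there with the DNA-binding protein Su(H). In many fly tissues the best known direct targets are the genes of the Enhancer of split complex, E(spl), which encode bHLH repressors and small Bearded-type proteins. Because the RNA of a mix came from both populations, a gene that the Delta line transcribes by itself and a gene that changes on contact cannot be told apart in a single pair of mixes. The design text sets the comparison of S2-NDCterm/S2-Dl with S2/S2-NDCterm against that of S2/S2-Dl with S2/S2 for this reason, and both were computed. Fewer cells of a type and less RNA per cell cannot be told apart either.

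Signals were deposited on a linear scale with a common mean, the array medians of the 5 arrays lying between 11.3 and 12.4. Among the arrays of S2/S2-Dl and S2/S2, S2/S2 replicate 2 had a median of 20.96. The others lay between 10.9 and 12.4. A change is given as a difference of means of log2(signal + 32), with its standard error (SE) from limma. The added 32 shrinks changes of dim genes. Calls were made below 0.05 after Benjamini-Hochberg adjustment over 18769 probe sets. The adjusted p values are those of limma, fitted to the 11 arrays of the 4 mixes. The ratio of the 3′ to the 5′ control probe set of Gapdh, a sign of RNA integrity, was 1.58, 2.25 and 1.57 in S2-NDCterm/S2-Dl, against 2.41 and 1.87 in S2/S2-NDCterm. The ratio was 1.95, 1.74 and 2.82 in S2/S2-Dl, against 2.71, 2.77 and 2.97 in S2/S2. The ratios overlapped between the mixes of each pair, and their part in the results was not tested.

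In S2-NDCterm/S2-Dl, 112 probe sets were higher than in S2/S2-NDCterm (0.597% of 18767, the Delta probe sets left out) and 42 were lower (0.224%), by limma. The rises ran from 0.50 to 7.26 on the log2 scale with a median of 1.11, and the falls from -0.49 to -2.25 with a median of -0.863. Taking the brightest probe set for each gene, 92 genes rose (0.768% of 11981) and 39 fell (0.326%), together 1.09%. The largest rise, of ry, is given below as a description only but is counted in the 112 and the 92. The median change over all genes was 0.0069. An unadjusted limma p below 0.05 was reached by 1527 probe sets (8.14%). The count rested on the choice of arrays: with replicates 1 and 3 alone, so that no array was chosen by its Delta signal, 73 probe sets were called (57 higher and 16 lower), all of them within the 154. With both arrays of replicate 2 averaged into 1 sample, 18 were called (17 higher and 1 lower). Of the 34 genes named below that were called here, 10 were still called in that fit. Leaving out either S2/S2-NDCterm array left 30 calls.

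The second array of replicate 2 resembled S2/S2-NDCterm in the called genes. For 131 of the 131 called genes its log2 value lay nearer to the mean of S2/S2-NDCterm than to that of S2-NDCterm/S2-Dl. These genes were chosen for differing between the same mixes, and the share over all genes was not computed. The ribosomal protein gene RpS5b, for example, read 37.4 on the second array, and the muscle gene TpnC4 read 0.963. The labels place this array in S2-NDCterm/S2-Dl, and its label goes against its Delta signal.

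The rise with the widest span belonged to ry, which encodes xanthine dehydrogenase, an enzyme of purine breakdown. ry read 5652, 5945 and 6326 in S2-NDCterm/S2-Dl, against 5.29 and 8.81 in S2/S2-NDCterm. In the 11 arrays it was near background wherever Delta was, so it is given as a description, with a log2 change of 7.26 (SE 0.13). In S2/S2-Dl it read 6047 to 7946, against 12.4 to 22.3 in S2/S2. The gene next to ry on arm 3R, l(3)87Df, with 0 protein-coding genes between them in the RefSeq gene order (Release 6 plus ISO1 MT), was also among the largest rises. l(3)87Df read 6602, 6918 and 6977 in S2-NDCterm/S2-Dl, against 636 and 605 in S2/S2-NDCterm, a log2 change of 3.395 (SE 0.17, limma adjusted p = 7.43e-08). It differed from ry in its level without Delta cells, which was well above background. Delta itself lies on the same arm with 743 genes between it and ry.

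RpS5b, a paralogue of the ribosomal protein S5 gene that is known from the germline, read 1662, 2151 and 1893 in S2-NDCterm/S2-Dl, against 50.3 and 36.0 in S2/S2-NDCterm. Its log2 change was 4.68 (SE 0.38, limma adjusted p = 1.55e-05). No other member of the list of ribosomal protein paralogues was called: 1 of 13 measured members rose and 0 fell, with a list median of -0.026. Over all genes 0.768% were higher and 0.326% lower. RpS19b averaged 152 in S2-NDCterm/S2-Dl and 85.8 in S2/S2-NDCterm and missed the threshold (log2 change 0.63, limma adjusted p = 0.644). The other germline markers measured showed no call, among them aub, a Piwi-family gene, with means of 587 in S2-NDCterm/S2-Dl and 617 in S2/S2-NDCterm.

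TpnC4, which encodes a troponin C of muscle, read 297, 329 and 276 in S2-NDCterm/S2-Dl, against 0.631 and 2.46 in S2/S2-NDCterm. The log2 change of TpnC4 was 3.31 (SE 0.20, limma adjusted p = 8.25e-07), and it was 5.02 with an offset of 8 and 1.73 with the largest offset tried, since the gene was at background in S2/S2-NDCterm. It was the 1 member of 11 measured muscle contractile genes that rose, and 1 fell, beside 0.768% higher and 0.326% lower over all genes. The contractile genes Mlc1, Mlc2, Tm2 and up stayed under 10 signal units in both mixes on average. bves, a Popeye-family membrane protein gene of the same list, was the 1 that fell, reading 163, 166 and 152 in S2-NDCterm/S2-Dl, against 298 and 254 in S2/S2-NDCterm (log2 change -0.68, limma adjusted p = 0.0356).

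Of 22 measured cell surface adhesion genes, 3 rose and 0 fell, beside 0.768% higher and 0.326% lower over all genes, and the list median was 0.072. Ten-m, a teneurin, one of the large transmembrane proteins that join partner cells, read 1139, 1186 and 1001 in S2-NDCterm/S2-Dl, against 216 and 220.02 in S2/S2-NDCterm. Its log2 change was 2.19 (SE 0.15, limma adjusted p = 2.27e-06). dpr19, an immunoglobulin-domain gene of the dpr family, read 189, 215 and 242 in S2-NDCterm/S2-Dl, against 15.9 and 16.7 in S2/S2-NDCterm (log2 change 2.35, SE 0.26, limma adjusted p = 0.00033). Ten-a, the other fly teneurin, read 124, 139.8 and 135 in S2-NDCterm/S2-Dl, against 48.0 and 51.1 in S2/S2-NDCterm. Its call was narrow (log2 change 1.01, limma adjusted p = 0.0463), ended when any 1 of the 5 arrays was left out, with adjusted p up to 0.451, and did not extend to its other probe sets, which were dim. The integrin gene mys, at 2969 in S2-NDCterm/S2-Dl and 2092 in S2/S2-NDCterm on average, missed the threshold (log2 change 0.50, limma adjusted p = 0.334).

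Transcription factor genes among the rises included ovo and ct. ovo encodes a zinc finger factor of the germline and the epidermis. Of 8 measured epidermal markers only ovo was called, beside 1.09% of all genes. It read 130, 124 and 164 in S2-NDCterm/S2-Dl, against 15.9 and 10.9 in S2/S2-NDCterm (log2 change 1.91, SE 0.19, limma adjusted p = 0.000176). The defining epidermal marker grh was near background, at 6.46 in S2-NDCterm/S2-Dl and 5.78 in S2/S2-NDCterm. ct encodes a homeodomain factor that Notch switches on at the margin of the fly wing. ct read 352, 397 and 351 in S2-NDCterm/S2-Dl, against 207 and 186 in S2/S2-NDCterm, a log2 change of 0.80 (SE 0.15, limma adjusted p = 0.0196). The call ended without any 1 of the S2-NDCterm/S2-Dl arrays, at limma adjusted p up to 0.109. Without S2/S2-NDCterm replicate 1 or 3, which left 1 array of that mix, the log2 change of ct was 0.868 or 0.735. The call of ct held in neither of these fits. The change of ct beside plain S2 cells was 0.78. Of its other probe sets, 1637687_at moved by 0.73 (limma adjusted p = 0.221) and the dim 1638337_at by 0.41, and neither was called. Of 10 measured Notch target factors outside E(spl) only ct was called, beside 1.09% of all genes. Only 1 of the 10 averaged above 100 signal units in either mix. The median signal of the list was 7.20 in S2-NDCterm/S2-Dl and 5.44 in S2/S2-NDCterm, so most members were too dim to show a change.

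Within the EGFR and Ras list, 2 of 10 measured members rose and 0 fell, beside 0.768% and 0.326% over all genes, with a list median of 0.16. sty encodes Sprouty, an inhibitor of receptor tyrosine kinase signalling that the pathway itself induces. sty read 1599, 1676 and 1736 in S2-NDCterm/S2-Dl, against 940.2 and 903 in S2/S2-NDCterm (log2 change 0.84, SE 0.13, limma adjusted p = 0.0051). Its other probe set, 1635677_a_at, moved by 0.96 and missed the threshold at an adjusted p of 0.0619. edl, which encodes a small protein that binds ETS factors of this pathway, read 2276, 2467 and 2766 in S2-NDCterm/S2-Dl, against 1393 and 1249 in S2/S2-NDCterm (log2 change 0.90, SE 0.18, limma adjusted p = 0.0305). The call of edl ended without any 1 of the 5 arrays (adjusted p up to 0.318) and that of sty without either S2/S2-NDCterm array (up to 0.105). aos, another inhibitor of the pathway, averaged 134 in S2-NDCterm/S2-Dl and 99.0 in S2/S2-NDCterm, with a limma adjusted p of 0.929.

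PCNA, the sliding clamp of DNA replication, read 3566, 3805 and 3984 in S2-NDCterm/S2-Dl, against 1482 and 1596 in S2/S2-NDCterm. Its log2 change was 1.28 (SE 0.14, limma adjusted p = 0.000298). PCNA was the 1 called member of 18 measured genes of DNA replication and the cell cycle, beside 1.09% of all genes. With PCNA, 6 of the 18 had an unadjusted limma p below 0.05, all of them higher, against 8.14% of all probe sets. The median change of the list was 0.27, with 15 of 18 positive. Mcm2, Mcm3, Mcm5 and Mcm6, subunits of the replicative helicase, had log2 changes of 0.05 to 0.34 and no call. dnk, the deoxyribonucleoside kinase gene, averaged 3749.5 in S2-NDCterm/S2-Dl and 2549.8 in S2/S2-NDCterm (log2 change 0.56, limma adjusted p = 0.202).

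The remaining rises named here carry CG numbers, and no role is given for them. CG12493 read 1943, 2406 and 1965 in S2-NDCterm/S2-Dl, against 169 and 142 in S2/S2-NDCterm (log2 change 3.51, SE 0.17, limma adjusted p = 4.87e-08). CG42613 read 165, 256 and 190.5 in S2-NDCterm/S2-Dl, against 7.35 and 6.85 in S2/S2-NDCterm, with a log2 change of 2.57, while its dim second probe set was not called. CG12818 read 395, 462 and 461 in S2-NDCterm/S2-Dl, against 106 and 94.6 in S2/S2-NDCterm, with a log2 change of 1.83. CG6357, CG9777 and CG3635 rose by 2.00, 1.93 and 1.93, with means of 171, 115 and 133 in S2-NDCterm/S2-Dl, against 18.6, 6.76 and 11.47 in S2/S2-NDCterm. The call of CG6357 ended without either S2/S2-NDCterm array (limma adjusted p up to 0.0828) and that of CG9777 without S2/S2-NDCterm replicate 3 (0.055).

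Probe sets of 1 gene disagreed in their call for 23 genes besides Delta, and Imp, chosen after its values were seen, had the widest gap among these 23. Imp encodes an mRNA-binding protein. Its brightest probe set, 1623455_s_at, read 876, 770.4 and 983 in S2-NDCterm/S2-Dl, against 977 and 914 in S2/S2-NDCterm, and was not called (log2 change -0.11). Probe set 1630309_s_at of Imp read 382, 536 and 408 in S2-NDCterm/S2-Dl, against 1.19 and 10.8 in S2/S2-NDCterm (log2 change 3.64, limma adjusted p = 4.87e-08). Probe set 1629905_s_at read 54.5, 92.6 and 69.7 in S2-NDCterm/S2-Dl, against 0.143 and 1.43 in S2/S2-NDCterm (log2 change 1.65). Imp therefore stands outside the 92 genes counted as higher. tkv, the type I receptor of the Dpp pathway, likewise had 1 dim probe set that was called (log2 change 1.63, adjusted p = 0.0219) beside a brighter one that was not (-0.19).

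**Figure D1:**
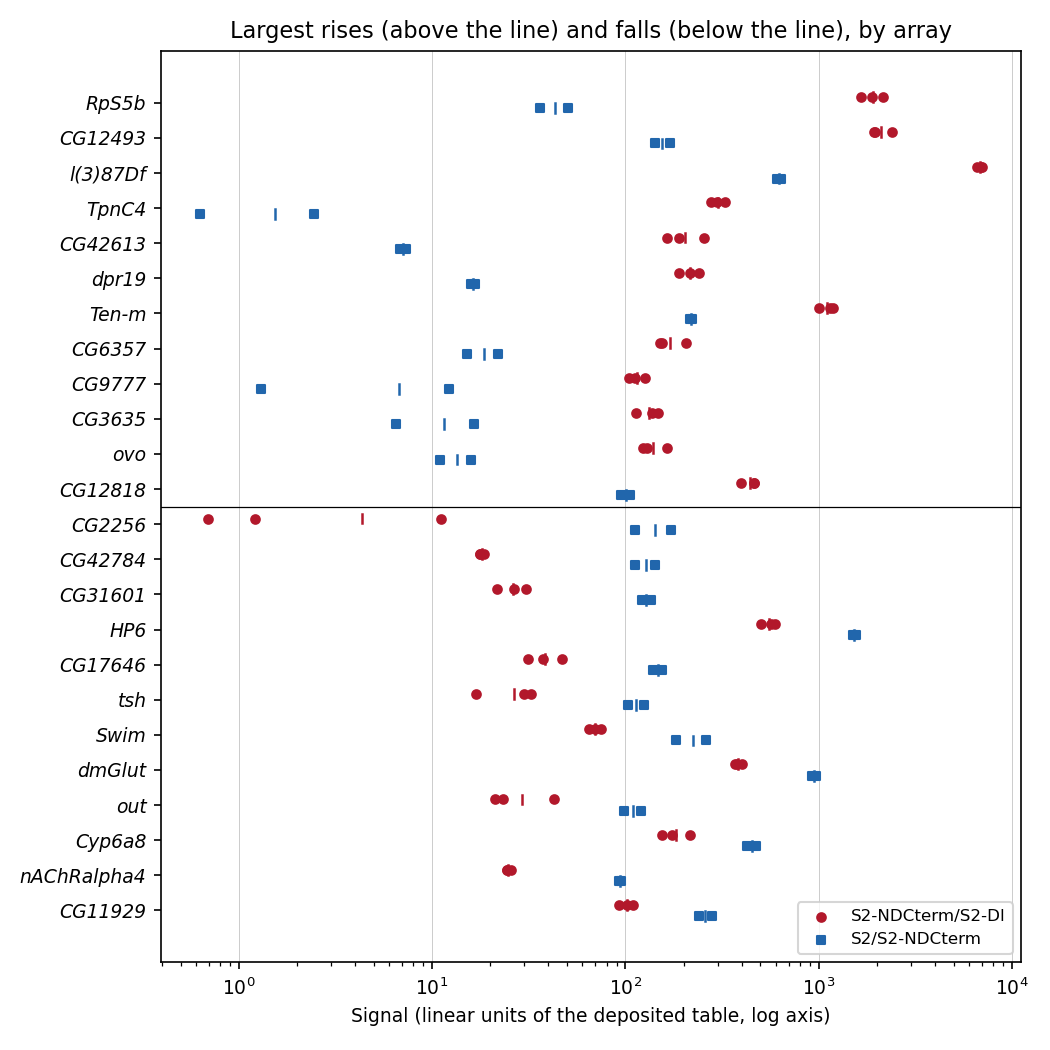
Signal of the 12 largest rises other than Delta and ry (above the line) and the 12 largest falls (below the line) on a log axis, each point 1 array and each short bar the mean: circles stand for the 3 arrays of S2-NDCterm/S2-Dl and squares for the 2 arrays of S2/S2-NDCterm. The mixes did not overlap for any of the 24 genes, which the rule for naming them required, and RpS5b and TpnC4 among the rises and CG2256 among the falls stand far apart between the mixes.

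Among the falls, CG2256 was the largest. It read 11.2, 1.21 and 0.692 in S2-NDCterm/S2-Dl, against 172 and 112 in S2/S2-NDCterm, a log2 change of -2.25 (SE 0.20, limma adjusted p = 5.5e-05). All 3 S2-NDCterm/S2-Dl arrays were near background, and its change was -3.67 with an offset of 8 and -1.02 with the largest offset tried. CG2256 was also the only fall among the named genes that was called under all 15 alternatives.

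HP6, which encodes a protein of the heterochromatin protein 1 family, read 593, 566 and 501 in S2-NDCterm/S2-Dl, against 1504 and 1550.3 in S2/S2-NDCterm. Its log2 change was -1.42 (SE 0.20, limma adjusted p = 0.00281). HP6 was the 1 called member of 13 measured chromatin genes, beside 1.09% of all genes. Its relatives HP1b and HP1c had log2 changes of 0.21 and 0.05. The call of HP6 ended without either S2/S2-NDCterm array, at adjusted p of 0.0615 and 0.0699.

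Of 16 measured transporters of metals, sugars and organic anions, 3 fell and 0 rose, beside 0.326% lower and 0.768% higher over all genes, with a list median of -0.037. dmGlut, a glutamate transporter gene, read 369, 376 and 403 in S2-NDCterm/S2-Dl, against 964 and 925 in S2/S2-NDCterm (log2 change -1.24, SE 0.17, limma adjusted p = 0.00223). Oatp58Dc, of the organic anion transporter family, read 955, 829 and 806 in S2-NDCterm/S2-Dl, against 2064 and 1495 in S2/S2-NDCterm (log2 change -1.003, SE 0.19, limma adjusted p = 0.0219). The call of Oatp58Dc ended without any 1 of the 5 arrays, and without S2/S2-NDCterm replicate 1 its adjusted p was 0.49. Fer2LCH, a ferritin subunit gene that is also in the plasmatocyte list, read 289, 279 and 281 in S2-NDCterm/S2-Dl, against 525 and 567 in S2/S2-NDCterm (log2 change -0.87, SE 0.13, limma adjusted p = 0.00579). The other ferritin subunit gene, Fer1HCH, averaged 5764 in S2-NDCterm/S2-Dl and 6325 in S2/S2-NDCterm and was not called. The calls of dmGlut and Fer2LCH ended without either S2/S2-NDCterm array, at adjusted p up to 0.0655 and 0.121.

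Further falls belonged to genes of several kinds. Swim, which encodes a secreted protein that binds Wingless, read 74.8, 65.0 and 69.4 in S2-NDCterm/S2-Dl, against 262 and 183 in S2/S2-NDCterm (log2 change -1.31, SE 0.16, limma adjusted p = 0.000824). tsh, a zinc finger factor gene of the fly trunk, read 16.9, 30.03 and 32.3 in S2-NDCterm/S2-Dl, against 124 and 103 in S2/S2-NDCterm (log2 change -1.32, limma adjusted p = 0.0296). The cytochrome P450 gene Cyp6a8 read 216, 155 and 175 in S2-NDCterm/S2-Dl, against 476 and 426 in S2/S2-NDCterm (log2 change -1.18, limma adjusted p = 0.0137).

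Both nAChRalpha4, a nicotinic acetylcholine receptor subunit gene, and out, a gene of the monocarboxylate transporter family, ended under 45 signal units in S2-NDCterm/S2-Dl. nAChRalpha4 read 25.5, 24.3 and 24.4 there, against 92.1 and 95.3 in S2/S2-NDCterm (log2 change -1.15, limma adjusted p = 0.0217). out read 23.2, 21.3 and 42.8 in S2-NDCterm/S2-Dl, against 98.5 and 121 in S2/S2-NDCterm (log2 change -1.23, limma adjusted p = 0.0496). The calls of tsh, nAChRalpha4 and out ended without any 1 of the 5 arrays, at adjusted p up to 0.421, 0.258 and 0.424, and that of bves likewise, up to 0.52. That of Cyp6a8 ended without any 1 of S2-NDCterm/S2-Dl replicates 2 and 3 and both S2/S2-NDCterm arrays (up to 0.269).

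CG42784, CG31601, CG17646 and CG11929 fell by 1.67, 1.46, 1.35 and 1.12 on the log2 scale. Their means were 18.04, 26.3, 38.6 and 101.5 in S2-NDCterm/S2-Dl, against 127, 128.3, 147 and 259 in S2/S2-NDCterm. Each of these calls ended without at least 1 of the S2/S2-NDCterm arrays, at limma adjusted p up to 0.0606, 0.0876, 0.0615 and 0.0699. CG42784 had 2 more probe sets, both dim and not called.

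The E(spl) and Bearded genes, the best known Notch targets, showed no call in either direction. In the limma fit 0 of 13 measured members rose and 0 fell, which is near the 0.821% of all probe sets called. An unadjusted p below 0.05 was reached by 0 of 13, against 8.14% of all probe sets. Their changes ran from -0.15 to 0.23 with a median of 0.0139. E(spl)m3-HLH, a bHLH repressor gene, read 1389.8, 1248 and 1309 in S2-NDCterm/S2-Dl, against 1314 and 1240.5 in S2/S2-NDCterm. The arrays of the mixes overlapped, and its log2 change of 0.04 had a 95% interval from -0.42 to 0.50. E(spl)mbeta-HLH, another bHLH repressor gene, read 812, 969 and 728 in S2-NDCterm/S2-Dl, against 786 and 626 in S2/S2-NDCterm, a change of 0.23 with an interval from -0.06 to 0.53.

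In the mixes without NDCterm cells the brighter E(spl) genes read lower, a description with no test here. Dim members varied. E(spl)mdelta-HLH averaged 20.3 in S2-NDCterm/S2-Dl and 26.1 in S2/S2-NDCterm, against 3.77 in S2/S2-Dl and 5.84 in S2/S2. E(spl)m7-HLH averaged 9.07 and 4.53 in the mixes with NDCterm cells, and 8.33 and 8.35 in those without, in the same order. E(spl)m3-HLH read 162 to 236 in S2/S2-Dl and 129 to 265 in S2/S2, and E(spl)mbeta-HLH 319 to 368 in S2/S2-Dl and 291 to 301 in S2/S2. The array left out, which had no Delta signal, read 1186 for E(spl)m3-HLH and 732 for E(spl)mbeta-HLH. The Bearded-type genes E(spl)malpha-BFM and E(spl)m2-BFM were dimmer. E(spl)malpha-BFM read 93.0, 95.5 and 78.8 in S2-NDCterm/S2-Dl, against 93.0 and 59.7 in S2/S2-NDCterm, and E(spl)m2-BFM read 80.4, 80.3 and 68.7 against 62.2 and 89.4. The other 9 members, among them Brd, Tom and Ocho, were under 35 signal units in each of the 5 arrays.

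**Figure D2:**
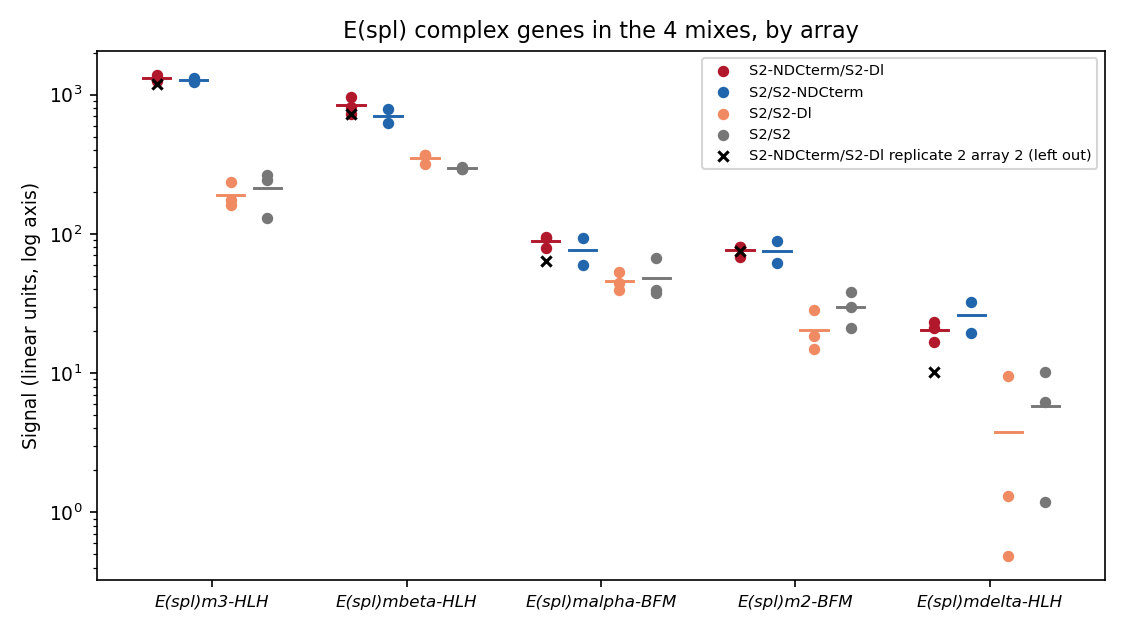
Signal of 5 E(spl) complex genes in the 4 mixes on a log axis, each dot 1 array, each bar the mean of a mix and the cross the array of S2-NDCterm/S2-Dl replicate 2 that was left out. E(spl)m3-HLH lay between 1248 and 1389.8 in S2-NDCterm/S2-Dl and at 1314 and 1240.5 in S2/S2-NDCterm, and between 129 and 265 in the mixes without NDCterm cells.

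The rest of the Notch pathway was measured with 26 of 31 listed genes, and by limma 0 rose and 0 fell (median 0.065, changes from -0.43 to 0.32), with 0 at an unadjusted p below 0.05. Over all genes 1.09% were called, so 0 of 26 is near that share. Of all probe sets, 8.14% had an unadjusted p below 0.05. Psn, the catalytic subunit of the protease that frees the Notch intracellular part, averaged 699 in S2-NDCterm/S2-Dl and 797 in S2/S2-NDCterm. H, which encodes the repressor partner of Su(H), averaged 423 in S2-NDCterm/S2-Dl and 385 in S2/S2-NDCterm. No probe set named Notch alone, so its own level is not analysed here.

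Markers of blood cells and of other cell types came next. Of 12 measured plasmatocyte markers, 0 rose and 1 (Fer2LCH) fell, beside 0.768% higher and 0.326% lower over all genes. The summed signal of these markers ran from 5341 to 5946 in S2-NDCterm/S2-Dl, against 5832 to 6360 in S2/S2-NDCterm. The blood cell factor gene srp averaged 899.96 in S2-NDCterm/S2-Dl and 825 in S2/S2-NDCterm, and ush, another, averaged 1306 in S2-NDCterm/S2-Dl and 1325 in S2/S2-NDCterm. eater, a phagocytic receptor gene, averaged 86.3 in S2-NDCterm/S2-Dl and 167 in S2/S2-NDCterm, with a log2 change of -0.75 that missed the threshold (limma adjusted p = 0.194), and was with Fer2LCH 1 of 2 listed markers at an unadjusted p below 0.05. Pxn, a peroxidase gene of the extracellular matrix, averaged 1256 in S2-NDCterm/S2-Dl and 1773 in S2/S2-NDCterm (log2 change -0.49, limma adjusted p = 0.815). The hemocyte marker Hml was dim, at 15.0 in S2-NDCterm/S2-Dl and 21.1 in S2/S2-NDCterm. Crystal cell and lamellocyte markers (8 measured), neuron and glia markers (9) and fat body markers (3) had 0 calls in either direction in the limma fit, with 2, 0 and 0 at an unadjusted p below 0.05. Over all genes 1.09% were called, and 8.14% of all probe sets had such an unadjusted p. Fat body markers summed to 11.3 to 13.9 in S2-NDCterm/S2-Dl, against 9.46 to 17.97 in S2/S2-NDCterm.

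Other lists had no call by limma: JNK and wound response (14 measured, 5 at an unadjusted p below 0.05), extracellular matrix (13, 1), immune effectors (8, 1), heat shock genes (9, 1) and glycolysis (9, 0). Over all genes 1.09% were called, and 8.14% of all probe sets had an unadjusted p below 0.05. The glycolytic genes had the lowest median of the 22 lists, at -0.418, with 2 of 9 positive, and -0.36 beside plain S2 cells. Tpi, an isomerase of that pathway, averaged 499.97 in S2-NDCterm/S2-Dl and 789 in S2/S2-NDCterm, with a limma adjusted p of 0.723. stv, a BAG-family co-chaperone gene in the heat shock list, had a log2 change of -1.68 (SE 0.37) and missed the threshold narrowly at a limma adjusted p of 0.0544. In purine and pyrimidine metabolism, ry, given as a description only, was the only 1 of 17 measured members called, beside 1.09% of all genes. mal, whose product finishes the cofactor of xanthine dehydrogenase, averaged 168 in S2-NDCterm/S2-Dl and 142 in S2/S2-NDCterm.

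The same change without NDCterm cells gives the scale for these values. The comparison of S2/S2-Dl with S2/S2 shares no array with that of the NDCterm mixes. In S2/S2-Dl, 209 probe sets were higher than in S2/S2 (1.11%) and 46 lower (0.245%), together 1.36%, or 174 genes higher (1.45%) and 37 lower (0.309%), together 1.76%. With the replicate number as a block, 273 probe sets were called higher and 86 lower. The overlaps given next come from the fit without the block. Of the 92 genes higher beside NDCterm cells, 73 were also called higher beside plain S2 cells, which is 79.3% of the 92 and 42% of the 174. All 92 had the same sign beside plain S2 cells. The medians over those 92 genes were 1.04 beside NDCterm cells and 1.06 beside plain S2 cells. Of the 39 lower genes, 12 were also called lower beside plain S2 cells, 30.8% of the 39 and 32.4% of the 37. All 39 had the same sign beside plain S2 cells, called or not. Their medians were -0.852 beside NDCterm cells and -0.494 beside plain S2 cells. The genes were chosen on the values beside NDCterm cells, so their medians there lean outward.

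The difference between the 2 changes is the contrast that the design names for a response of NDCterm cells to Delta. By limma, 0 probe sets were higher and 2 were lower (0.0107%), and 649 (3.46%) had an unadjusted p below 0.05. No probe set that names a single gene was called. The median difference over all probe sets was 0.0485, and it was 0.00691 without S2/S2 replicate 2, the array with the high median signal. With the replicate number as a block, 1 probe set was called lower. The block is given because same-numbered arrays of S2/S2-Dl and S2/S2 deviated together. On simulated data the same fit recovered 51.4% of differences of 1 and 99% of differences of 2 on the log2 scale. The simulated noise was independent between arrays, unlike that of S2/S2-Dl and S2/S2, so these shares may not hold for the real arrays. The 5 genes with the smallest p were CG2256, CG46491, Apoltp, CG4238 and CG14273.

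CG2256 came nearest to a call, at -1.58 (SE 0.27) and a limma adjusted p of 0.236, its change being -2.25 beside NDCterm cells and -0.67 beside plain S2 cells. With an offset of 8 the difference of CG2256 was -2.91 and passed, at an adjusted p of 0.0248. CG14273 read 1817, 2050.0 and 1855 in S2-NDCterm/S2-Dl, against 948 and 971 in S2/S2-NDCterm, a rise of 0.97 (limma adjusted p = 0.0078), and its change beside plain S2 cells was 1.82. Its call in the first comparison ended without replicate 2 of S2-NDCterm/S2-Dl or either S2/S2-NDCterm array (adjusted p up to 0.145). Apoltp, an apolipoprotein gene of lipid transport, read 92.8, 107 and 103 in S2-NDCterm/S2-Dl, against 53.2 and 57.5 in S2/S2-NDCterm, and its difference was -1.11 (limma adjusted p = 0.997). The difference of E(spl)m3-HLH was 0.14 and that of E(spl)mbeta-HLH 0.01, both at the same adjusted p.

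**Figure D3:**
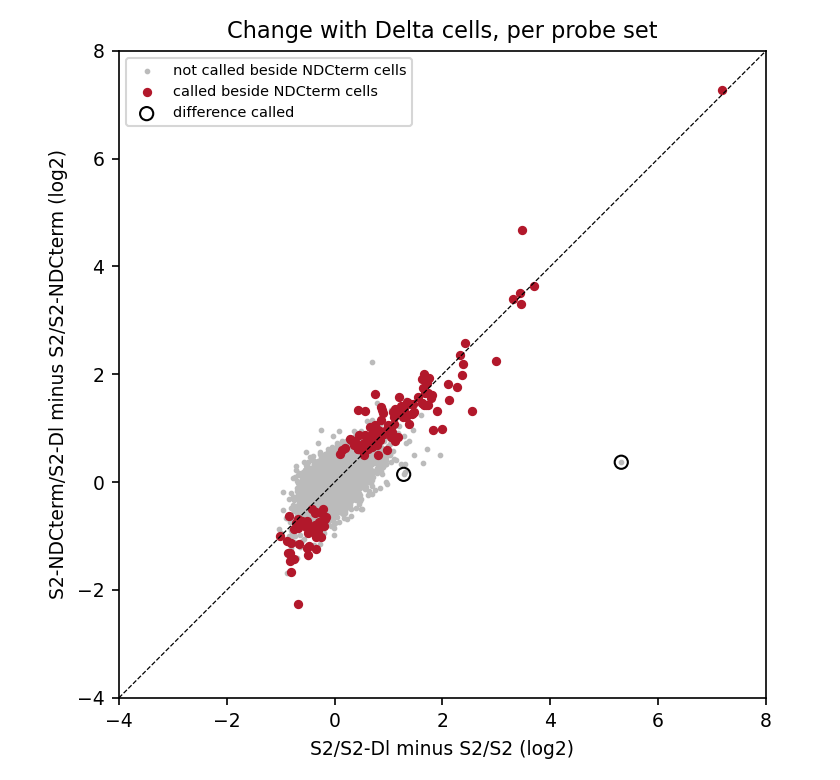
Log2 change of every probe set other than Delta's in S2-NDCterm/S2-Dl minus S2/S2-NDCterm (vertical) and in S2/S2-Dl minus S2/S2 (horizontal), with the dashed line marking equal changes. The 154 probe sets called beside NDCterm cells are dark, and open rings mark the 2 whose difference was called, 1 of them at 0.37 beside NDCterm cells and 5.32 beside plain S2 cells.

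Signals of a mix add on the linear scale if each population keeps its own expression and share. A sum was therefore formed per gene by adding the means of S2/S2-NDCterm and S2/S2-Dl and taking off the S2/S2 mean, and the measured mean of S2-NDCterm/S2-Dl was set beside it, with no test. The SE of a sum came from the spread of arrays within the mixes, not from limma, and took the mixes as independent. Over the 92 higher genes the ratio of measured to summed signal had a median of 1.06, with quartiles of 0.946 and 1.16, against 1.02 (0.913 and 1.17) over 6456 genes with both values at or above the median signal. RpS5b measured 1902 against a sum of 1758.5 (SE 335), Ten-m 1108 against 987 (SE 61.8), PCNA 3785 against 3894 (SE 347), and l(3)87Df 6833 against 8013 (SE 557). CycJ, a cyclin gene, was 1 of 5 higher genes above 1.5 times the sum, and CG10859 was the 1 below the sum by that factor.

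Of the 39 lower genes, 36 had both values at or above the median signal, and their ratio had a median of 0.779 (quartiles 0.659 and 0.888), with 10 below the sum by over 1.5 times. They were chosen for low values in S2-NDCterm/S2-Dl, which lowers the ratio by itself. dmGlut measured 383 against a sum of 825 (SE 83.4): it averaged 944 in S2/S2-NDCterm, 420.5 in S2/S2-Dl and 539 in S2/S2. Cyp6a8 measured 182 against a sum of 365 (SE 58.2). Swim measured 69.7 against 72.3 (SE 45.8), and HP6 553 against 657 (SE 365), so the sums of both were imprecise. CG2256 measured 4.36 against 41.8, a sum whose SE of 37.7 was nearly as large as itself, and lay under the median signal. The difference contrast called none of these genes, and that of dmGlut was -0.90 (limma adjusted p = 0.997).

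**Figure D4:**
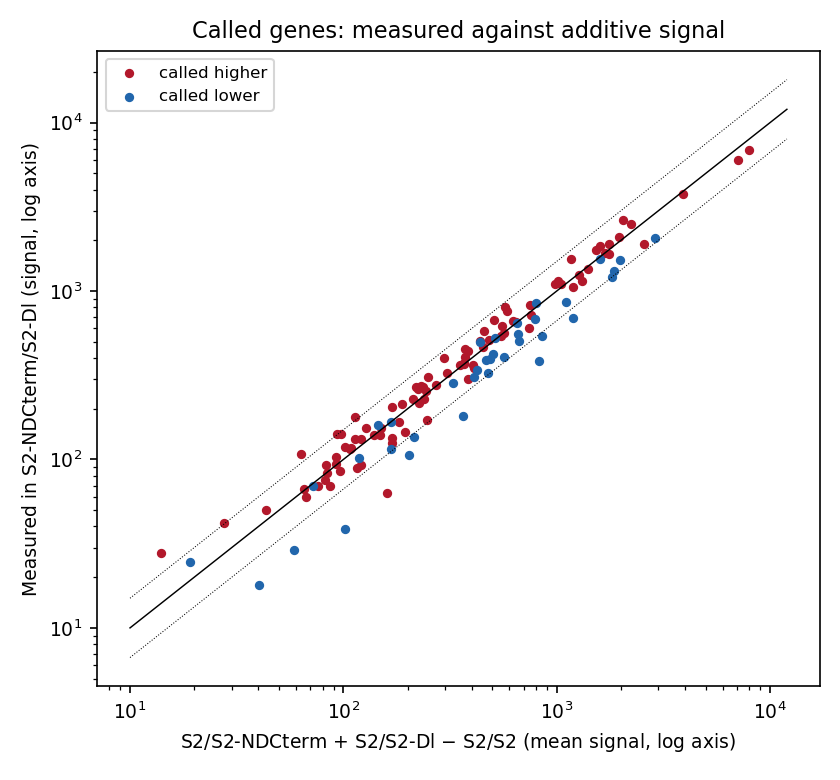
Mean signal of the called genes measured in S2-NDCterm/S2-Dl (vertical) against the sum of the other mixes (horizontal), both on log axes, for 92 higher and 36 lower genes. The solid line marks equality and the dotted lines 1.5 times above and below, and most higher genes lie along the line while the lower genes lean beneath it.

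By position, 29 of 1873 genes measured on the X chromosome were higher in S2-NDCterm/S2-Dl (1.55%), against 0.768% over all arms. The share was 0.771% on 2L, 0.70% on 2R, 0.555% on 3L and 0.471% on 3R, and 0 of 65 genes on chromosome 4 were called. The X genes as a whole did not shift: their median change was 0.00346. The X chromosome also held 8 of the lower genes (0.427%), among them CG2256, out and bves. Besides ry and l(3)87Df, direct neighbours among the called genes were CG5568 and CG18586 on 3L, which changed by 1.76 and 1.57, and the X-linked pairs feo with sofe and CG8924 with Rrp47, all of them found by gene order after their values were known.

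**Figure D5:**
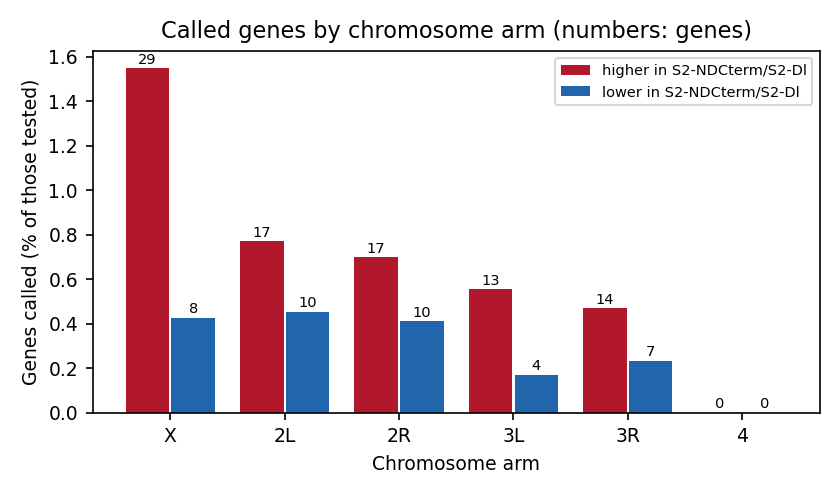
Share of the measured genes called higher (left bars) and lower (right bars) in S2-NDCterm/S2-Dl relative to S2/S2-NDCterm on each chromosome arm, in percent, with the number of genes above each bar. The X chromosome had 1.55% higher genes, and the other arms had 0.771% or less.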

How the data were processed

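RNA was measured on 24 Affymetrix-type Drosophila arrays. The deposited table holds linear intensity values with 1 signal per probe set, scaled by the authors to a common mean, as its values show (the mean after trimming 2% at each end was 150.004 to 150.005). The sources used here do not give the software. Arrays give no read depth, and their number limits the precision. Of 18952 probe sets, 183 controls were left out. The rest named 1 gene (13647), several (402) or none (4720), and no filter on low values was applied.

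The 11 arrays of 4 mixes (3 S2-NDCterm/S2-Dl, 2 S2/S2-NDCterm, 3 S2/S2-Dl, 3 S2/S2) entered 1 limma model of log2(signal + 32) with a mean trend (limma 3.58.1, R 4.3.3; 7 residual degrees of freedom, 6.66 from the prior). Both contrasts were taken from it, with Benjamini-Hochberg adjustment over 18769 probe sets. Replicates are pools of 2 samples, and nothing says that they came from separate cultures, so p-values measure the spread between these pools. On simulated data with 200 of 18769 probe sets changed (10 draws, noise independent between arrays), the fit of the first contrast recovered 87.4% at a log2 change of 1 and 99.8% at 2, with 5.82% and 5.22% of calls false.

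Named genes were the 12 largest rises (ry and Delta apart) and falls among called genes with a mean of at least 10.4 (the median signal) in 1 of the mixes and no overlap between them, called members of 22 gene lists (255 of 330 genes measured), the E(spl) and Bearded genes, Delta and ry, and the 5 smallest p of the difference. The brightest probe set stood for a gene. The comparison, its arrays and the lists were chosen with earlier results of these data known, and no set test was run. Same-numbered replicates of S2-NDCterm/S2-Dl and S2/S2-NDCterm had residual correlations of 0.00996 and 0.198 over 2 pairs, so no pairing was taken for this comparison. Those of S2/S2-Dl and S2/S2 were 0.663, 0.415 and 0.519, so their numbers pair these arrays, and the block result stands beside the difference. Alternatives were the scaling, the offset, a filter, the trend, the arrays in the fit, both treatments of replicate 2, a replicate block and leaving out each replicate.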

Additional observations from a re-analysis of the deposited data

Results flagged for a closer look

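On the log2 scale, probe sets 1624393_at and 1635578_at changed differently with Delta cells beside NDCterm cells than beside plain S2 cells, by the test of the difference itself. The first names no gene. Probe set 1624393_at read 4459, 4159.7 and 3911 in S2-NDCterm/S2-Dl, against 3408 and 3046 in S2/S2-NDCterm, while S2/S2-Dl averaged 1394 and S2/S2 was near background. Its difference was -4.947 on the log2 scale (limma adjusted p = 1.36e-08). On the linear scale its measured mean of 4177 lay near the sum of the other mixes, 4617 (SE 220). Signals that add on the linear scale can still differ in this way on the log2 scale. Probe set 1635578_at, which names several genes, averaged 1017.5 in S2-NDCterm/S2-Dl and 917 in S2/S2-NDCterm, against a change of 1.28 beside plain S2 cells, and its difference was -1.136 (limma adjusted p = 0.0325). With the replicate block its adjusted p was 0.0581. On the linear scale its measured mean of 1017.5 lay below the sum of the other mixes, 1515 (SE 58.8), a description with no test.

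The second array of S2-NDCterm/S2-Dl replicate 2 was not used in the comparisons. E(spl)m3-HLH read 1186.3 there, above the 129 to 265 of S2/S2. It read 1314 and 1240.5 in S2/S2-NDCterm, which had no Delta signal either.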

How the results depend on the processing

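The number of probe sets called between S2-NDCterm/S2-Dl and S2/S2-NDCterm was 154. It stayed within 1.5 times of that under quantile normalization, both other offsets, the filter on low values, no mean trend and with the S2/S2-DlDI arrays. It was 510 in a fit on the compared mixes only, of which 57.1% were higher against 72.7% in the fit of 4 mixes. It was 73 with neither array of replicate 2 and 18 with the mean of both (94.4% higher), and 30 to 77 when each replicate was left out in turn. The replicate block gave 169, of which 138 were among the 154. The numbers were not shown to pair these mixes. For S2/S2-Dl and S2/S2, whose numbers do pair the arrays, the block gave 359 calls against 255, of which 251 were shared, and for the difference it left 1 of 2. For that difference, 2 calls became 4 with an offset of 8, 1 with the largest offset, 1 without the mean trend and 1 with neither array of replicate 2, and 1 to 4 on leaving out each replicate in turn. It has no fit on fewer mixes. The cause of these changes was not tested. Of 34 named genes called in the first comparison, 10 were called under all 15 alternatives: CG12493, CG12818, CG2256, CG42613, RpS5b, Ten-m, TpnC4, l(3)87Df, ovo and ry. None of the 34 reversed its direction under these alternatives. ry is counted in the 34 and the 10, although it followed the Delta signal and is given as a description only. The log2 change of dim genes depends on the offset.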
